A study of Mus musculus with 6 samples.

Results

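The genes described here are 38 mouse genes that mark glia and blood vessels: 9 of astrocytes, 12 of the oligodendrocyte lineage, 11 of microglia and 6 of vessels. They were named as a list and were looked up by symbol among 21755 protein-coding genes of the GENCODE vM21 annotation on chromosomes 1 to 19 and X, where all 38 were found. The question was how many DNA double-strand break ends fell in genes that belong to other cell types when the cells sequenced were neurons.

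Breaks were mapped by BLISS, in which adaptors are ligated to the double-strand ends of fixed nuclei, so that the 5′ end of a read marks a break end. The nuclei came from neurons sorted from the forebrain of CK-p25 mice, in which leaving doxycycline out of the diet lets forebrain neurons make p25, which activates the kinase Cdk5. There were 6 libraries, 2 labelled Step2, 2 labelled Step1 and 2 labelled Con. The labels give the same tissue, cell type, genotype and 2 weeks without doxycycline to all 3 groups, the Con libraries included. They do not say what Step1 and Step2 stand for, nor whether the 2 libraries of a group came from separate animals or pools, so a p-value here reflects the variation between the libraries sequenced, part or all of it possibly technical.

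Astrocytes clear glutamate and buffer ions and water, oligodendrocytes wrap axons in myelin, microglia are the resident phagocytes of the brain, and endothelial cells and pericytes build the vessel wall. Their identity genes are kept silent in neurons, commonly in chromatin that is closed and at promoters poor in CpG. Double-strand breaks in neurons are known to gather at active genes and promoters, which makes genes of other cell types a natural comparison. RNA was not measured here, so that the silence of these genes in the sorted cells is background and could not be checked.

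The libraries held 1480461 to 2403238 reads, with fewer in Step2 than in Step1 and Con. Break ends are given as a density, in reads per kb of gene body per 1000000 reads, in which the genome as a whole averaged 0.391. Between 3.71% and 5.06% of a library's reads lay in 26 windows of 10 kb where reads pile up. These were left out of the scaling, and no read of the 38 genes lay in them. The density is a share of the reads of a library and says nothing of the number of breaks per cell.

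The 38 gene bodies carried break ends at the level of the genome at large. They spanned 1951 kb in all and held 8803 reads, of which 2245 were in the Step2 libraries, 3263 in the Step1 libraries and 3295 in the Con libraries. The density of single members had a median of 0.37, against 0.38 over all protein-coding genes. With 1 read kept per position and strand, the medians were 0.38 in the members and 0.39 over all genes. The list was longer than most genes (median 27.4 kb against 17.4 kb) and richer in GC (49.0% against 45.3%). Of the 38 members, 17 lay above the genome average and 21 below it.

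**Figure D1:**
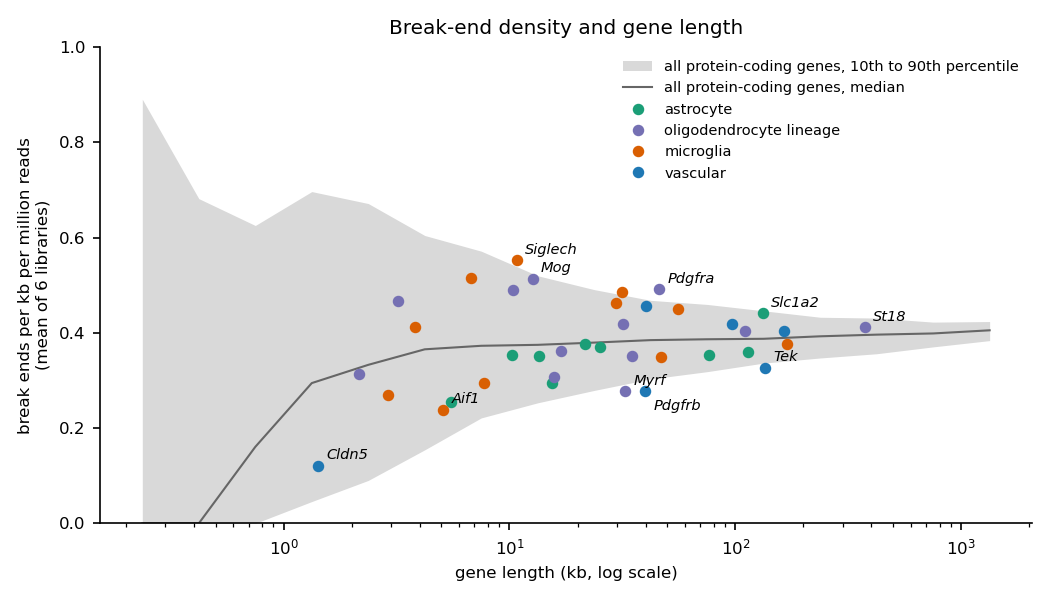
Mean density of break ends over 6 libraries (y axis, reads per kb per 1000000 reads) against gene length (x axis, kb, log scale) for the 38 members, coloured by cell type. The grey band spans the 10th to the 90th percentile of all protein-coding genes of that length. In the plot 33 members lie within the band, 2 above it and 3 below it, and the band narrows as length grows.

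Gene length set how precisely a member could be read. Cldn5, a tight-junction protein of endothelium and the shortest member at 1.42 kb, had 2 reads in all. St18, a zinc-finger transcription factor and the longest at 374 kb, had 1750. The small genes Olig1, Olig2, Aif1, Tyrobp, C1qa and Cldn5, 6 in all, had no read in at least 1 library. Within the 20 members with 100 reads or more, densities ran only between 0.277 and 0.491. With all reads, 5 members lay outside the 10th to 90th percentile of genes of their length. By definition, 10% of the genes of a length lie above this band and 10% below it. Siglech, a lectin of microglia, lay above it at 0.552 (upper edge 0.520), as did Pdgfra, the growth factor receptor of oligodendrocyte precursors, at 0.491 (upper edge 0.468). Myrf, the transcription factor that drives myelin genes, lay below it at 0.278 (lower edge 0.303), with the pericyte receptor Pdgfrb at 0.277 (lower edge 0.303) and the angiopoietin receptor Tek at 0.327 (lower edge 0.337). With 1 read per position and strand, the densities were 0.520 for Siglech, 0.454 for Pdgfra, 0.296 for Myrf, 0.299 for Pdgfrb and 0.334 for Tek. The edges given are those with all reads. Of the 263 reads of Pdgfra, 17 shared 1 position.

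Astrocyte genes ranged between 0.256 and 0.442. The highest was Slc1a2 (chr2:102658659-102790784), the main glutamate transporter of the forebrain. Its densities were 0.363 and 0.464 in Step2, 0.428 and 0.440 in Step1, and 0.450 and 0.506 in Con. Slc1a3, the other astrocyte glutamate transporter (chr15:8634124-8710764), had 0.304 and 0.276 in Step2, 0.366 and 0.383 in Step1, and 0.367 and 0.430 in Con. Both Step2 libraries were the lowest for Slc1a3, while for Slc1a2 one Step2 library was the lowest and the other lay within the range of Step1 and Con. Aqp4, the water channel of astrocyte endfeet, went the other way, with 0.574 and 0.525 in Step2, 0.388 and 0.264 in Step1, and 0.253 and 0.256 in Con. Those values stand on 18 and 16 reads in Step2, 19 and 11 in Step1, and 12 and 12 in Con. Gfap, the filament protein of reactive astrocytes, had 10 and 6 reads in Step2, 12 and 7 in Step1, and 11 and 8 in Con, with all 3 groups overlapping. The folate enzyme Aldh1l1, long enough to hold 468 reads, had an average density of 0.359. The gap-junction gene Gja1, with 106 reads, stood at 0.370 and its partner Gjb6, with 40, at 0.353. Fgfr3, a fibroblast growth factor receptor, and the transcription factor Sox9 were the lowest of the class at 0.295 and 0.256, on 50 and 17 reads.

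Oligodendrocyte lineage genes ranged between 0.278 and 0.514. Mog, a myelin surface protein (chr17:37010743-37023398), was the highest, with 0.325 and 0.390 in Step2, 0.450 and 0.366 in Step1, and 0.538 and 1.01 in Con. One Con library stood apart from the other 5, with 28 reads against 6 to 15. Mobp, another myelin protein (chr9:120149707-120181484), had 0.410 and 0.533 in Step2, 0.566 and 0.421 in Step1, and 0.328 and 0.259 in Con, so that both Con libraries were the lowest. St18 (chr1:6487231-6860940), with 237 to 334 reads in every library, had 0.446 and 0.447 in Step2, 0.388 and 0.413 in Step1, and 0.370 and 0.409 in Con. For Pdgfra (chr5:75152292-75198215) the densities were 0.537 and 0.369 in Step2, 0.458 and 0.381 in Step1, and 0.563 and 0.638 in Con. Mbp, the major myelin protein, was read 516 times and averaged 0.405. The other members were Sox10 at 0.491, the precursor proteoglycan Cspg4 at 0.352, Cnp, a myelin-associated phosphodiesterase, at 0.362, and the myelin adhesion protein Mag at 0.308. The lineage regulators Olig2 and Olig1 held 16 and 8 reads, too few to place.

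Microglial genes ranged between 0.239 and 0.552. Siglech (chr7:55768178-55778925) had 3 and 8 reads in Step2, 13 and 13 in Step1, and 15 and 19 in Con. Ctss, a lysosomal protease (chr3:95526786-95556403), had 16 and 35 reads in Step2, 23 and 30 in Step1, and 34 and 12 in Con. The 2 libraries of Step2 and the 2 of Con thus differed more than 2-fold from each other, and 13 of the 150 reads of Ctss shared 1 position. Csf1r, the growth factor receptor on which microglia depend, likewise had 37 and 14 reads in Step2, 34 and 23 in Step1, and 33 and 33 in Con. Tmem119, a membrane protein, averaged 0.515, which is the 90.2 percentile of all genes, but 21.1% of its 38 reads lay at 1 position. With 1 read per position it stood at the 31.9 percentile. Itgam, the integrin chain CD11b, was the steadiest, with 37 and 37 reads in Step2, 53 and 52 in Step1, and 52 and 56 in Con. Aif1, a calcium-binding protein, the complement gene C1qa, the lipid receptor Trem2 and its adaptor Tyrobp held 10 to 26 reads each.

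Several of these bodies share their reads with other genes. The purinergic receptor gene P2ry12 lies wholly inside Med12l, and Itgam overlaps the model Gm49368 over 99.9% of its length. The fractalkine receptor gene Cx3cr1 has a 168-kb model in this annotation, of which 54.0% is shared with Wdr48, Gorasp1, Ttc21a, Csrnp1 and Xirp1. Of Cnp, 53.0% is shared with Dnajc7, and of Csf1r 2.77% with Hmgxb3. Reads there cannot be assigned to 1 gene, and they stay in the pooled values of the microglial and oligodendrocyte classes.

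Vascular genes ranged between 0.121 for Cldn5 and 0.457 for Rgs5, a G-protein regulator of pericytes. Tek (chr4:94739289-94874976) had 0.323 and 0.286 in Step2, 0.313 and 0.254 in Step1, and 0.445 and 0.341 in Con, on 517 reads. Both Con libraries were the highest for Tek with all reads. With 1 read per position and strand, Tek had 0.337 and 0.316 in Step2, 0.333 and 0.282 in Step1, and 0.411 and 0.324 in Con. Both Step2 and Step1 then overlapped Con. Pdgfrb had 15 and 19 reads in Step2, 26 and 28 in Step1, and 27 and 10 in Con, where the 2 Con libraries lay farther apart than those of Step1 or of Step2. Flt1, a receptor of vascular endothelial growth factor, held 759 reads and averaged 0.404, and the adhesion protein Pecam1 held 459 reads and averaged 0.418.

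**Figure D2:**
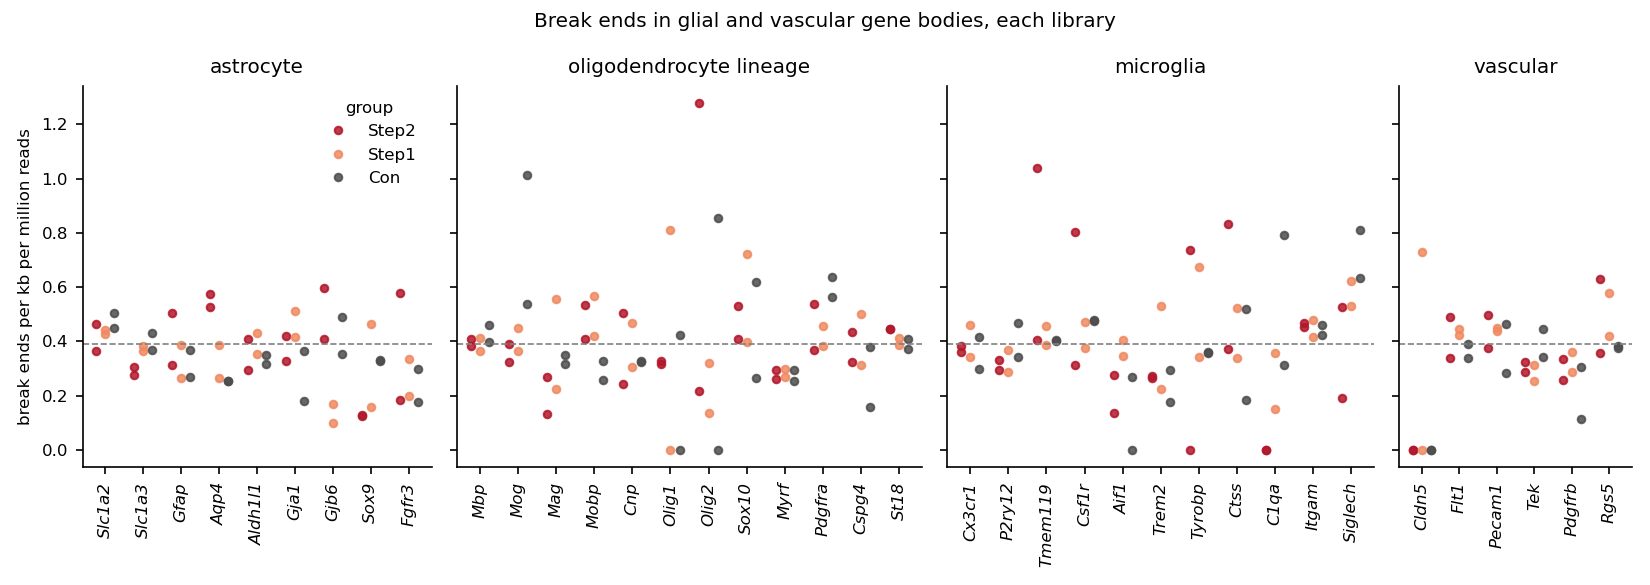
Density of break ends (y axis, reads per kb per 1000000 reads) in the body of each of the 38 members, by cell type. Each point is 1 library, with Step2 at the left, Step1 in the middle and Con at the right of each gene, and the dashed line is the genome average of 0.391. The libraries of a long gene such as St18 lie close to each other, and those of small genes such as Olig2 and Tmem119 scatter up to 1.28.

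Pooling a class lowers the counting error. Over all 38 bodies the density was 0.383 and 0.418 in Step2, 0.388 and 0.405 in Step1, and 0.383 and 0.387 in Con. The Step2 mean was 1.04 times the Con mean (exact Poisson interval of the summed counts 0.984 to 1.10). The Step1 mean was 1.03 times the Con mean (0.980 to 1.08), and the Step2 mean 1.01 times the Step1 mean (0.957 to 1.07). These intervals cover counting error only. Reads at 1 position may not all be independent molecules, which was not tested. Step2 overlapped both Step1 and Con, while both Step1 libraries lay above both Con libraries. With 1 read per position and strand, the density was 0.397 and 0.423 in Step2, 0.389 and 0.416 in Step1, and 0.389 and 0.371 in Con. On that measure both Step2 libraries also lay above both Con libraries, with a ratio of means of 1.08. With all reads, without Step2 replicate 2 the Step2 mean lay just below the Con mean, and the direction of Step2 over Step1 turned without Step2 replicate 2, without Step1 replicate 1 or without St18. With 2 libraries against 2, an exact permutation test cannot give a two-sided p below 0.33, and none was run.

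By class, the astrocyte genes together had 0.358 and 0.394 in Step2, 0.374 and 0.404 in Step1, and 0.354 and 0.409 in Con. The oligodendrocyte lineage genes had 0.427 and 0.415 in Step2, 0.402 and 0.399 in Step1, and 0.379 and 0.419 in Con. Microglial genes had 0.390 and 0.432 in Step2, 0.371 and 0.445 in Step1, and 0.434 and 0.351 in Con. Vascular genes had 0.335 and 0.431 in Step2, 0.395 and 0.383 in Step1, and 0.376 and 0.348 in Con. Of the 4 classes, the groups overlapped in all comparisons except that both oligodendrocyte Step2 values exceeded both Step1 values, and both vascular Step1 values both Con values.

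With 1 read per position and strand, both vascular Step1 values again exceeded both Con values, and all 3 groups separated in the oligodendrocyte class. Its genes then had 0.439 and 0.433 in Step2, 0.409 and 0.413 in Step1, and 0.386 and 0.382 in Con, so that the 3 groups no longer overlapped. The ratio of means was 1.14 for Step2 over Con and 1.07 for Step1 over Con, against 1.06 and 1.00 with all reads. St18 alone held 1750 of the 3210 reads of this class, and without it the separation of the 3 groups was lost. The other 11 genes had, with 1 read per position, 0.419 and 0.396 in Step2, 0.414 and 0.402 in Step1, and 0.397 and 0.374 in Con. The 14 further genes of the oligodendrocyte lineage outside the list had, with 1 read per position, 0.378 and 0.396 in Step2, 0.388 and 0.390 in Step1, and 0.417 and 0.415 in Con.

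**Figure D3:**
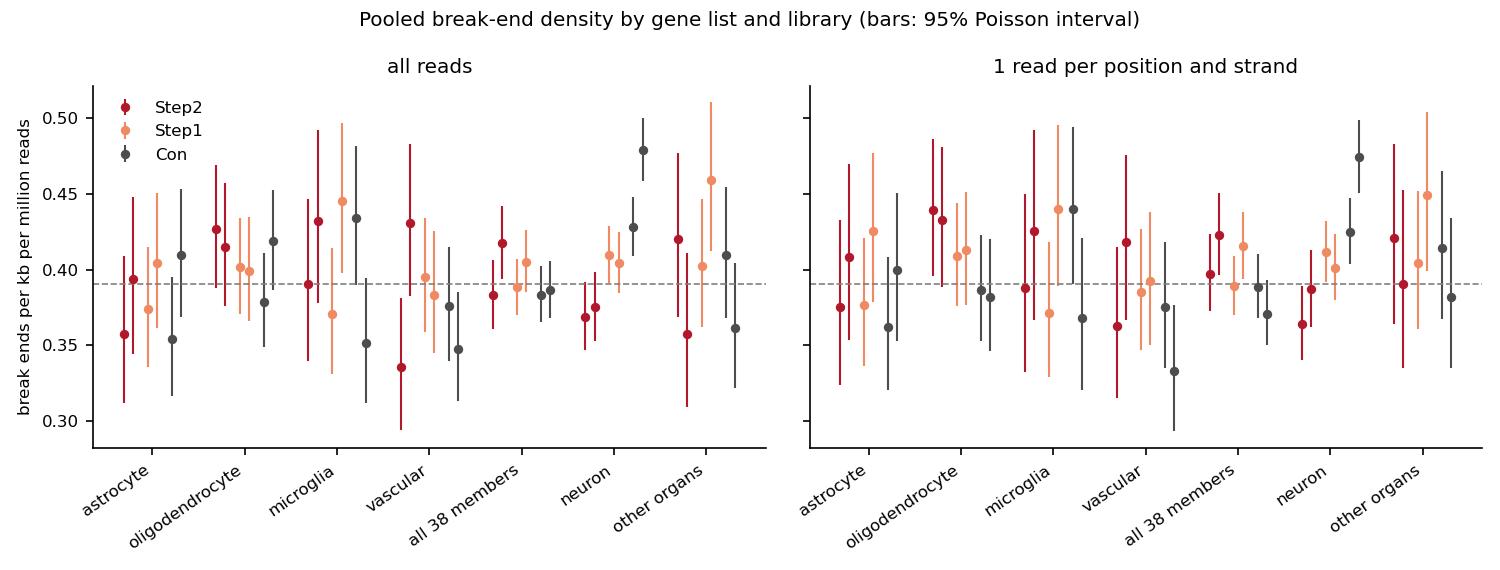
Pooled density of break ends (y axis, reads per kb per 1000000 reads, not starting at 0) in each class, in all 38 members, in 20 neuron genes and in 22 genes of other organs. Each point is 1 library with its 95% Poisson interval, ordered Step2, Step1 and Con within a class. The left panel has all reads and the right panel 1 read per position and strand, and the dashed line is the genome average of 0.391.

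A set of 20 neuron genes pooled to 0.369 and 0.375 in Step2, 0.410 and 0.404 in Step1, and 0.428 and 0.479 in Con. The members' density divided by that of the neuron genes was 1.04 and 1.11 in Step2, 0.947 and 1.00 in Step1, and 0.895 and 0.807 in Con. This ratio did not overlap between groups, but how often other lists separate in this way was not tested. The neuron genes, too, were chosen with earlier results of these data known. Divided by the density of all protein-coding genes, the members had 0.914 and 1.00 in Step2, 0.915 and 0.956 in Step1, and 0.896 and 0.896 in Con. There Step2 and Step1 overlapped, and both lay above Con. The counts of all protein-coding genes kept reads in piled-up windows, which the scaling left out. With 1 read per position and strand, this ratio was 1.02 and 1.09 in Step2, 1.005 and 1.07 in Step1, and 0.972 and 0.908 in Con. On that measure the members lay above all genes in Step2 and Step1 and below them in Con. The neuron genes had 0.820 times the Con density in Step2 and 0.897 times in Step1, where the members had 1.04 and 1.03 times. In the neuron list the glutamate receptor gene Grin1 was called, on 15 and 7 reads in Step2, 37 and 34 in Step1, and 67 and 65 in Con, with a log2 fold change of -2.01 ± 0.42 for Step2 over Con (limma adjusted p = 0.025). The 22 genes of other organs (liver, muscle, skin, pancreas, kidney and lymphocytes) had 0.420 and 0.357 in Step2, 0.402 and 0.459 in Step1, and 0.409 and 0.361 in Con. Their groups overlapped in all 3 comparisons.

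Gene by gene, no member passed the test in any comparison. Counts were fitted across all genes with 10 reads or more in at least 2 libraries, which left 13811 genes and 28 of the 38 members: 7 of astrocytes, 10 of the oligodendrocyte lineage, 6 of microglia and 5 of vessels. The other 10 (Aif1, C1qa, Cldn5, Gjb6, Olig1, Olig2, Sox9, Tmem119, Trem2 and Tyrobp) were too short for their reads to be tested. With limma's voom fit and Benjamini-Hochberg adjustment at 0.05, 0 of 28 members were called for Step2 over Con, where 0.0941% of all genes were called. For Step1 over Con 0 of 28 were called, against 0.123% of all genes, and for Step2 over Step1 0 of 28, against 0.0434%. At such shares a list of 28 would be likely to hold none. An unadjusted limma p below 0.05 was found for 1 member in Step2 over Con (7.77% of all genes), for 2 in Step1 over Con (7.08%) and for 0 in Step2 over Step1 (3.42%). With 1 read per position and strand, 0 members were called as well, against 0.126%, 0.118% and 0.0315% of all genes for Step2 over Con, Step1 over Con and Step2 over Step1.

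The median log2 fold change of the tested members was 0.11 for Step2 over Con, 0.09 for Step1 over Con and -0.06 for Step2 over Step1. Over all genes tested it was -0.04 for Step2 over Con, -0.04 for Step1 over Con and -0.00 for Step2 over Step1. The change was positive in 19 of 28 members for Step2 over Con and in 19 of 28 for Step1 over Con, with 46.0% and 45.3% of all genes. Both comparisons use the same Con libraries, so that the 2 counts are not independent. For Step2 over Step1, 10 of 28 were positive, with 49.8% of all genes.

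The two-sided 95% interval of a fold change excluded a 2-fold difference in either direction for 14 members in Step2 over Con, 14 in Step1 over Con and 17 in Step2 over Step1. For the rest, the interval was too wide at this depth to exclude a change of that size.

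**Figure D4:**
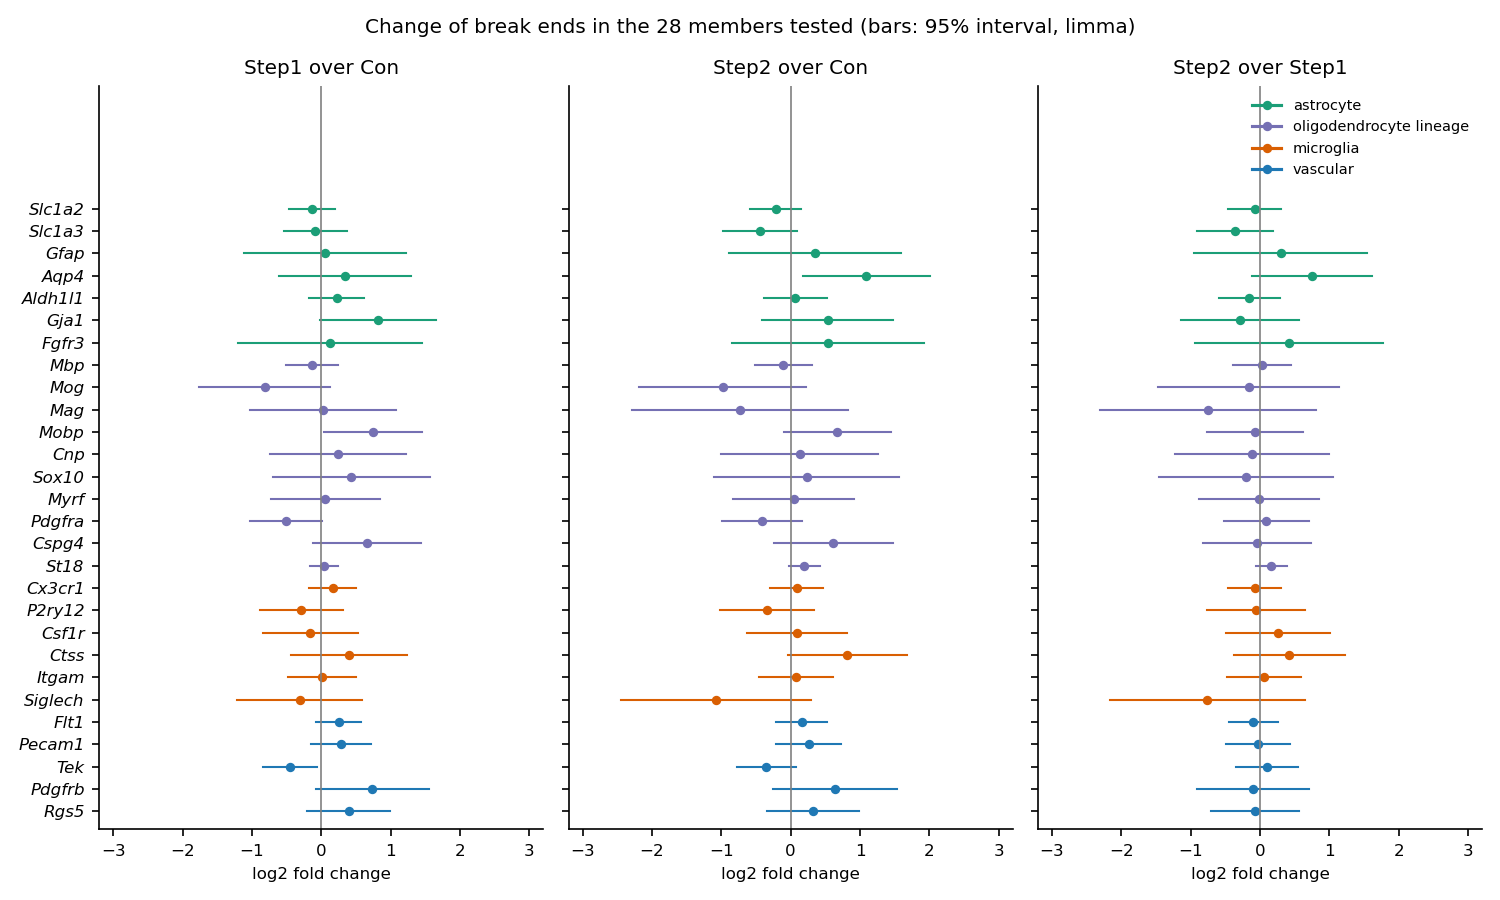
Log2 fold change of break ends (x axis) with its 95% interval from limma for the 28 tested members (rows, coloured by cell type) in the 3 comparisons. Intervals are narrow for long genes such as St18 and wide for short ones such as Mag and Siglech. None passed the adjusted threshold.

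For Step2 over Con, the members with the smallest unadjusted p among those with a positive fold change were Aqp4, Ctss and St18. Aqp4 had a log2 fold change of 1.09 ± 0.46 (SE; limma adjusted p = 0.562), with both Step2 libraries above both Con libraries. Ctss had 0.82 ± 0.42 (limma adjusted p = 0.655), with overlapping groups. St18 had 0.20 ± 0.11 (limma adjusted p = 0.697), a small difference read on the most counts of any member. On the negative side stood Tek at -0.35 ± 0.21 (limma adjusted p = 0.722), Slc1a3 at -0.44 ± 0.27 (limma adjusted p = 0.725) and Mog at -0.98 ± 0.59 (limma adjusted p = 0.725). All 3 had both Step2 libraries below both Con libraries with all reads.

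For Step1 over Con, Mobp had a log2 fold change of 0.74 ± 0.35 (limma adjusted p = 0.685), Gja1 0.82 ± 0.41 (limma adjusted p = 0.707) and Pdgfrb 0.74 ± 0.40 (limma adjusted p = 0.727). Both Step1 libraries lay above both Con libraries for Mobp and Gja1, and the groups overlapped for Pdgfrb. Tek had -0.45 ± 0.19 (limma adjusted p = 0.647), Pdgfra -0.50 ± 0.26 (limma adjusted p = 0.710) and Mog -0.82 ± 0.47 (limma adjusted p = 0.738). Each was without overlap with all reads.

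For Step2 over Step1, every adjusted limma p of the members was 0.999. The members with the smallest unadjusted p were Aqp4 (0.75 ± 0.43), St18 (0.16 ± 0.11) and Ctss (0.42 ± 0.40) on the positive side and Slc1a3 (-0.36 ± 0.27), Siglech (-0.76 ± 0.70) and Mag (-0.75 ± 0.77) on the negative side, as log2 fold changes with their SE.

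Libraries of different groups often did not overlap, in the members as in other genes. For Step2 over Con, both Step2 libraries lay above both Con libraries in 3 of 28 members (15.2% of all genes) and below in 7 (21.7%). For Step1 over Con, 6 were above (15.4%) and 6 below (21.3%). For Step2 over Step1, 2 were above (16.1%) and 2 below (17.9%). With all reads, Aqp4 and Mobp were above Con in both Step2 and Step1, and Mog, Pdgfra, Siglech and Tek below Con in both. The same Con libraries serve in each pair. With 1 read per position and strand, Aqp4, Mobp and Mog kept this order, and Pdgfra, Siglech and Tek did not. Pdgfra then had 0.516 and 0.397 in Con and 0.465 and 0.403 in Step1. Siglech had 0.577 and 0.409 in Con and 0.601 and 0.667 in Step1. The index of dispersion over the 6 libraries has a mean of 1 for pure counting error, and a lower median. Differences between groups enter it as well. Its median was 1.93 in the 28 members and 1.51 over all genes tested, and 1.26 and 0.975 with 1 read per position.

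The density of break ends at the starts of these genes depended on the window. Within 1 kb on either side of the start the 38 members had 348 reads, a density 1.02 times that of the rest of their bodies (95% interval 0.913 to 1.13), and 0.99 times with 1 read per position (0.878 to 1.11). On that second measure, with piled-up windows left out, the ratio was 1.51 over all protein-coding genes, 1.46 in the 20 neuron genes (1.28 to 1.67), 1.03 in the 56 other glial and vascular genes (0.936 to 1.13) and 0.852 in the genes of other organs (0.719 to 1.01). Within 500 bases of the start, the members' ratio was 1.13 with all reads (0.977 to 1.30) and 1.18 with 1 read per position (1.01 to 1.37). With 1 read per position and piled-up windows kept, all protein-coding genes had 1.91 there, and 1.60 within 1 kb. The neuron genes had 1.75 within 500 bases. In that narrower window the astrocyte members had 1.37 with all reads (1.05 to 1.79) and 1.39 with 1 read per position (1.04 to 1.86), and the intervals of the other 3 classes included 1. The starts used are the outermost annotated ones. They lie farthest before the start of the principal transcript for Mbp (79384 bases), Aldh1l1 (64362) and Pecam1 (35369). Using the start of the principal transcript gave 1.04 for the members with all reads within 1 kb. By class the members' ratios within 1 kb, with 1 read per position, were 1.03 for astrocytes, 1.06 for the oligodendrocyte lineage, 0.905 for microglia and 0.910 for vessels.

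The CpG content of the starts differs between these sets. A ratio of observed to expected CpG of 0.6 or more was found at the starts of 8 members: Slc1a2, Sox9, Fgfr3, Mbp, Olig1, Olig2, Myrf and Flt1. CpG was read at the outermost annotated start, which for Mbp is not the start of the principal transcript. The ratios that follow are within 1 kb, with 1 read per position and piled-up windows left out. These 8 members had 1.22 times the density of their bodies at the start (0.963 to 1.54), against 1.97 over the 10082 CpG-rich genes. The other 30 had 0.928 (0.808 to 1.07), against 1.12 over 11673 CpG-poor genes. In single libraries the 8 members had 1.20 and 1.14 in Step2, 1.13 and 0.902 in Step1, and 1.21 and 1.76 in Con, while CpG-rich genes as a whole had 1.78 and 1.92 in Step2, 1.60 and 1.84 in Step1, and 1.93 and 2.72 in Con. The members' value was below that of all CpG-rich genes in each of the 6 libraries. This is not particular to glial and vascular genes, since the 9 CpG-rich neuron genes had 0.991 (0.782 to 1.26) and the CpG-poor 11 had 1.85 (1.58 to 2.16).

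**Figure D5:**
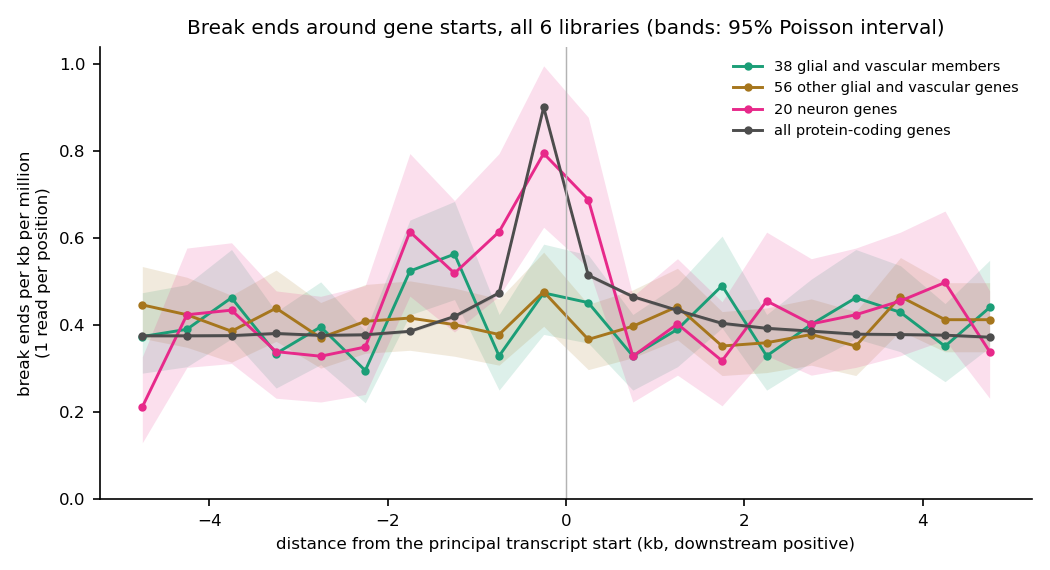
Density of break ends (y axis, reads per kb per 1000000 reads, 1 read per position and strand, piled-up windows left out) in bins of 500 bases within 5 kb of the start of the principal transcript (x axis, kb), over all 6 libraries, with 95% Poisson bands. The line of all protein-coding genes peaks at 0.901 just before the start, where the 38 members have 0.474 (0.379 to 0.586). The members reach 0.563 (0.459 to 0.684) between 1 and 1.5 kb before the start.

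Across groups, the start over body ratio of the members within 1 kb, with all reads, was 1.25 in Step2 (1.03 to 1.51), 1.00 in Step1 and 0.877 in Con (0.727 to 1.06). With 1 read per position it was 1.02 in Step2 (0.813 to 1.29), 0.969 in Step1 and 0.985 in Con, so that the order of the groups rested on repeated reads at the same positions. The astrocyte genes were the highest class in Step2, at 2.06 in Step2, 0.953 in Step1 and 0.625 in Con with all reads, and at 1.56 in Step2, 0.984 in Step1 and 0.691 in Con with 1 read per position. Astrocyte starts held 12 and 27 reads in Step2, 18 and 10 in Step1, and 8 and 11 in Con. The Step2 value leaned on replicate 2, where Slc1a2 gave 8 reads and Aldh1l1 6 of the 27, while replicate 1 gave none for either gene. The Aldh1l1 start used lies 64362 bases before the start of its principal transcript.

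The promoters shown next belong to the members with the most reads within 1 kb of the start among those for which a promoter was used. They are Mag with 17 reads, Cnp with 13 and Itgam with 13. The sequences are from RefSeq (GRCm38.p6), 250 bases before to 50 after a start within 100 bases of the annotated one, 5′ to 3′ on the strand of the gene, with CG dinucleotides, the same on both strands, in capitals. Mag is at chr7:30914814-30915113 on the minus strand, Cnp at chr11:100574689-100574988 on the plus strand and Itgam at chr7:128062390-128062689 on the plus strand.
Mag: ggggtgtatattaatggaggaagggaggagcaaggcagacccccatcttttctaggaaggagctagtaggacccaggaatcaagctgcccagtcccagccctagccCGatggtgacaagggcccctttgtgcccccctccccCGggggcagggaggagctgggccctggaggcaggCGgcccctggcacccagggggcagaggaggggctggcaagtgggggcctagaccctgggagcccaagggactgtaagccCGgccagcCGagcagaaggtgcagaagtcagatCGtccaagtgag
Cnp: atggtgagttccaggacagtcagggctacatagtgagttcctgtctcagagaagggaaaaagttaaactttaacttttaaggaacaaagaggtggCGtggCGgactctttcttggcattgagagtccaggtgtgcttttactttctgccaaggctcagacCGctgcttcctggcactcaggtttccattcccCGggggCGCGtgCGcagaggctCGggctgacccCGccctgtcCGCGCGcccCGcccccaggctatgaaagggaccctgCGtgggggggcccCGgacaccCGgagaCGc
Itgam: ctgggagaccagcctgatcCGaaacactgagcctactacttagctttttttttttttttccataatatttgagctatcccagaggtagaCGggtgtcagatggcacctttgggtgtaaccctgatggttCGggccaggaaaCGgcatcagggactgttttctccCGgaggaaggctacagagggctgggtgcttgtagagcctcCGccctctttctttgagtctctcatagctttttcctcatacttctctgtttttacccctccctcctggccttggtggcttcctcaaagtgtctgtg
Mag and Itgam have 6 CG each and Cnp 17, where the median of 32851 mouse promoters in the table is 7, and 25 of the 38 members were found in it. Over the 6 libraries these 300 bases held 0 reads for Mag, 3 for Cnp and 2 for Itgam. The reads near these starts lay mostly outside the promoter window, elsewhere within 1 kb of the start.

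Of the 8803 reads, 50.1% (Wilson 95% interval 49.0 to 51.1) lay on the sense strand. Exons make up 10.2% of the bases and held slightly more of the reads, 11.3% (lower bound of the interval 10.7). Cut into 3 equal stretches in the direction of transcription, the bodies held 33.5% of the reads in the first, 32.7% in the middle and 33.8% in the last. Single classes were less even. The microglial genes had 36.4% of their reads in the first stretch, 33.4% in the middle and 30.3% in the last, and the vascular genes 33.0%, 30.2% and 36.8% in the same order. Relative to the DNA within 50 kb on either side that lies outside protein-coding genes, the density of the bodies was 0.993 (0.966 to 1.02). By class it was 0.908 for astrocyte genes (0.857 to 0.962), 1.08 for the oligodendrocyte lineage (1.03 to 1.13), 1.01 for microglia (0.947 to 1.07) and 0.971 for vessels (0.910 to 1.04). In single libraries the astrocyte ratio was 0.944 and 0.902 in Step2, 0.919 and 0.986 in Step1, and 0.787 and 0.939 in Con, below 1 in all 6, while the oligodendrocyte ratio ran between 0.995 and 1.15. Across the 38 members, those with few reads included, density and GC content had a Spearman correlation of -0.342. With 60 reads or more per gene, it was -0.16 in 24 members and -0.265 over 12228 genes. Genes are not independent replicates, and GC content also varies with gene length.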

How the data were processed

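Double-strand break ends were mapped by BLISS in 6 libraries of sorted CK-p25 forebrain neurons, 2 per group. The authors deposited 1 list of aligned reads per library, on mm10, and its score column holds the aligner's mapping quality, between 11 and 42. The submitters' processing notes name Bowtie2, SAMtools and bedtools; no settings or version numbers are given in the sources used here. Per the labels the reads had been deduplicated, trimmed and filtered on quality; 1.19 to 1.42 reads per position remained. Reads of 2 sequencing runs were found in every library.

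From these lists the 5′ end of each read was counted in gene bodies (GENCODE vM21) with all reads and with 1 read per position and strand. Windows of 10 kb with over 20 times the median of 45 reads were left out of library sizes. Counts with 10 reads or more in 2 libraries were fitted with limma 3.58.1 (voom, lmFit, eBayes; R 4.3.3) with 1 mean per group over all 6 libraries, two-sided, Benjamini-Hochberg over 13811 genes. The fit was tested on simulated data. Ratios of densities carry 95% intervals of counting error (Poisson, or Wilson for shares). Total reads of 1480461 to 2403238 per library set the precision.

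The 38 members and all comparison lists were chosen with earlier results of these data known. Fold changes are printed for the 3 members per direction with the smallest unadjusted p, and listed genes outside the members only where called. A result on 1 gene outside the members is not reported here. The main fit did not pair libraries by replicate number. The correlations of same-numbered deviations were 0.033, 0.0050 and -0.0051. Much of the spread at these read counts is counting error, so values near 0 cannot exclude a pairing.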

Additional observations from a re-analysis of the deposited data

How the results depend on the processing

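No member was called under any of 20 other settings, the smallest adjusted limma p being 0.229 (Mog, Step1 over Con, without Con replicate 1), and of 346 recomputed fold changes of the named members 345 kept their direction; Ctss for Step2 over Step1 lay between -0.14 and 1.00 with a library left out, the lowest without Step2 replicate 2. The pooled density ratios of the 38 members between groups moved by less than the spread between replicates under each alternative. The ratio at their starts stayed within its own interval of counting error (0.913 to 1.13) under each alternative scored. Within 500 bases and with 1 read per position, a combination not scored there, it was 1.18 and lay outside that interval. Its interval of 1.01 to 1.37 lay above 1. Counts of all genes called moved more, and the cause was not tested. For Step1 over Con (17 genes) they were 4 with sequencing run 1 only, 35 with piled-up windows left out, 9 with median of ratios scaling, 10 with trimmed mean of M values scaling, 10 with no filter, 6 with the stricter filter, 30 with sample quality weights, 38 with the replicate block, 9 with the 2 groups only, and 3 to 177 with a library left out. For Step2 over Con (13 genes) they were 3 with run 1 only, 31 with piled-up windows left out, 21 with those windows kept in library sizes, 5 with no filter, 6 with the stricter filter, 45 with limma-trend, 25 with quality weights, 43 with the replicate block and 1 to 122 with a library left out. For Step2 over Step1 (6 genes) they were 2 at a mapping quality of at least 30, 1 with piled-up windows left out, 3 with trimmed mean of M values scaling, 3 with no filter, 10 with limma-trend, 11 with the replicate block, 10 with the 2 groups only and 2 to 8 with a library left out. The replicate block called 0 members. The checks chosen after seeing the data were principal transcript starts, starts with 1 read per position and piled-up windows left out, and St18 left out, also from the oligodendrocyte class. Depth limits short genes most: 10 of 38 members had too few reads to test.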
